A study of Homo sapiens with 24 samples.

Results

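The 39 genes described here are those that cells switch on when amino acids run short or when proteins misfold in the endoplasmic reticulum (ER), the compartment where secreted and membrane proteins are folded. They were chosen by name from the 55773 gene names of the deposited count table, and all 39 were found there. By role, 31 of them belong to the amino acid response and 8 to the ER, and the 2 sets are kept apart below. RNA was sequenced from U937, an established human myelomonocytic leukaemia line grown in RPMI medium with serum, in 8 groups of 3 libraries each. One control group was mock-treated with DMSO, and 2 groups received UNC0638, an inhibitor of the histone methyltransferases G9a and GLP, at 2 µM or 4 µM and were harvested after 3 days. A second control carried a hairpin of scrambled sequence. The remaining groups carried a knockdown hairpin. Hairpin 2 or 3 against G9a (gene EHMT2), and hairpin 2 or 4 against SUV39H1, another methyltransferase of histone H3 lysine 9, were brought in by lentivirus with 3 days of puromycin selection. The labels state no harvest time for the DMSO cells, no transduction of the DMSO or UNC0638 cells, and do not mention selection of the scrambled cells. They do not say whether libraries of a group came from separate cultures, so p-values measure only the spread between these libraries, which may be technical.

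Amino acid shortage leaves uncharged transfer RNA, which the kinase GCN2 senses, and unfolded protein in the ER is sensed by PERK, IRE1 and ATF6. GCN2, PERK and the kinases PKR and HRI all phosphorylate the translation factor eIF2, which slows most translation and favours that of ATF4, a transcription factor of amino acid synthesis, transport and transfer RNA charging genes. IRE1 instead splices the XBP1 message, and XBP1 and ATF6 raise ER chaperones. ATF4 and XBP1 are controlled mainly at translation and splicing, neither of which is measured by gene counts.

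Depth was 31545854 to 53803704 counts per library. The level of a gene is given as CPM, its counts scaled to the size of the library. Of the 39 genes, 38 had enough counts to be tested among 20147 genes. The exception was PYCR1, the last enzyme of proline synthesis, at 0 to 6 counts per group over 3 libraries. EHMT2 was at 70.6 to 77.4 CPM in the 6 G9a hairpin libraries against 139 to 154 in the scrambled ones, and SUV39H1 at 18.2 to 23.2 in the 6 SUV39H1 hairpin libraries against 56.5 to 59.8. All 10 myeloid markers were detected. The T and B cell markers CD3D, CD3E and MS4A1 had 2 to 6 counts over all 24 libraries, but CD79A and NKG7 were detected in each. DMSO replicate 1 stood apart from the other DMSO libraries, with a chi-square per degree of freedom of 15.2 and 34.7 against them, where replicates 2 and 3 gave 4.05. Scrambled replicate 3, in the control of every hairpin comparison, gave 7.86 and 12.4 against replicates 1 and 2, which gave 2.72 between them. Replicate 1 at 2 µM gave 7.43 and 9.83, where replicates 2 and 3 gave 2.66.

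Promoter sequences are shown first because they hold elements known for the 2 arms. RefSeq windows of 250 bases upstream of each start on GRCh38.p14 were matched for 32 of the 39 genes, 24 of the amino acid arm and all 8 of the ER arm, and NUPR1, PSPH, SHMT2, ALDH1L2, PYCR1, GARS and SARS were not matched. Capitals mark the match, and each sequence runs 5′ to 3′ in the direction of its gene. The core of the C/EBP-ATF response element bound by ATF4, TGATGNAA on either strand, was found in 4 amino acid genes. These were ASNS (chr7:97872449-97872496, minus strand), AARS (chr16:70289666-70289713, minus strand), CHAC1 (chr15:40953242-40953289, plus strand) and CEBPG (chr19:33374061-33374088, plus strand). The CEBPG match lies downstream of another start of that gene, so it is printed with 10 bases on each side in place of 20.
ASNS: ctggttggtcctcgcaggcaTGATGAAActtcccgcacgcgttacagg
AARS: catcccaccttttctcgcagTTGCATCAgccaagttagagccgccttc
CHAC1: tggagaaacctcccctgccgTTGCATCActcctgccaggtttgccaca
CEBPG: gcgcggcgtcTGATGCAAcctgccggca
That is 16.7% of the 24 matched genes, where 3.89% of all 27305 genes with a window held it. The match is a description of these letters and not evidence of binding.

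The ER stress response element, CCAAT and CCACG with 9 bases of any kind between them, bound by ATF6 with NF-Y, was found in 3 of the 8 ER genes, in 0 of the 24 amino acid genes, and in 0.0916% of all genes. They were HSPA5 (chr9:125241371-125241429, minus strand), HSP90B1 (chr12:103930196-103930254, plus strand, the first of its pair of matches) and XBP1 (chr22:28800583-28800641, minus strand). The shorter element ERSE-II, ATTGG and CCACG with 1 base between them, was found in HERPUD1 (chr16:56932005-56932055, plus strand) and SDF2L1 (chr22:21642094-21642144, plus strand) and in 0.0659% of all genes.
HSPA5: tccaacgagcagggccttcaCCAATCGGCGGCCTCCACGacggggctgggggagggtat
HSP90B1: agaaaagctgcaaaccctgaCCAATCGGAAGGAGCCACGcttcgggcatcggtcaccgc
XBP1: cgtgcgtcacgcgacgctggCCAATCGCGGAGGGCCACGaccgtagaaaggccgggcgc
HERPUD1: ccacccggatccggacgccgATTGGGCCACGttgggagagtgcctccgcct
SDF2L1: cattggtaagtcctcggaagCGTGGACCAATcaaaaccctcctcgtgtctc
HERPUD1 also held TGATGNAA, which did not overlap its other match.

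Per kilobase of transcript, the ER chaperones HSP90B1 (271 CPM per kilobase, averaged over the 8 groups) and HSPA5 (229) stood highest in level. PDIA4, a disulfide isomerase (107), and ATF4 (105) came next. The lowest tested genes per kilobase were ALDH1L2, a mitochondrial folate enzyme (0.0183), the secreted glycoprotein gene STC2 (0.0513) and the stress-induced chromatin protein gene NUPR1 (0.579). CHAC1, a glutathione-degrading enzyme, was at 1.03. Those 4 low genes rested on 11 to 409 counts per group over 3 libraries, so their fold changes carry large errors.

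**Figure D1:**
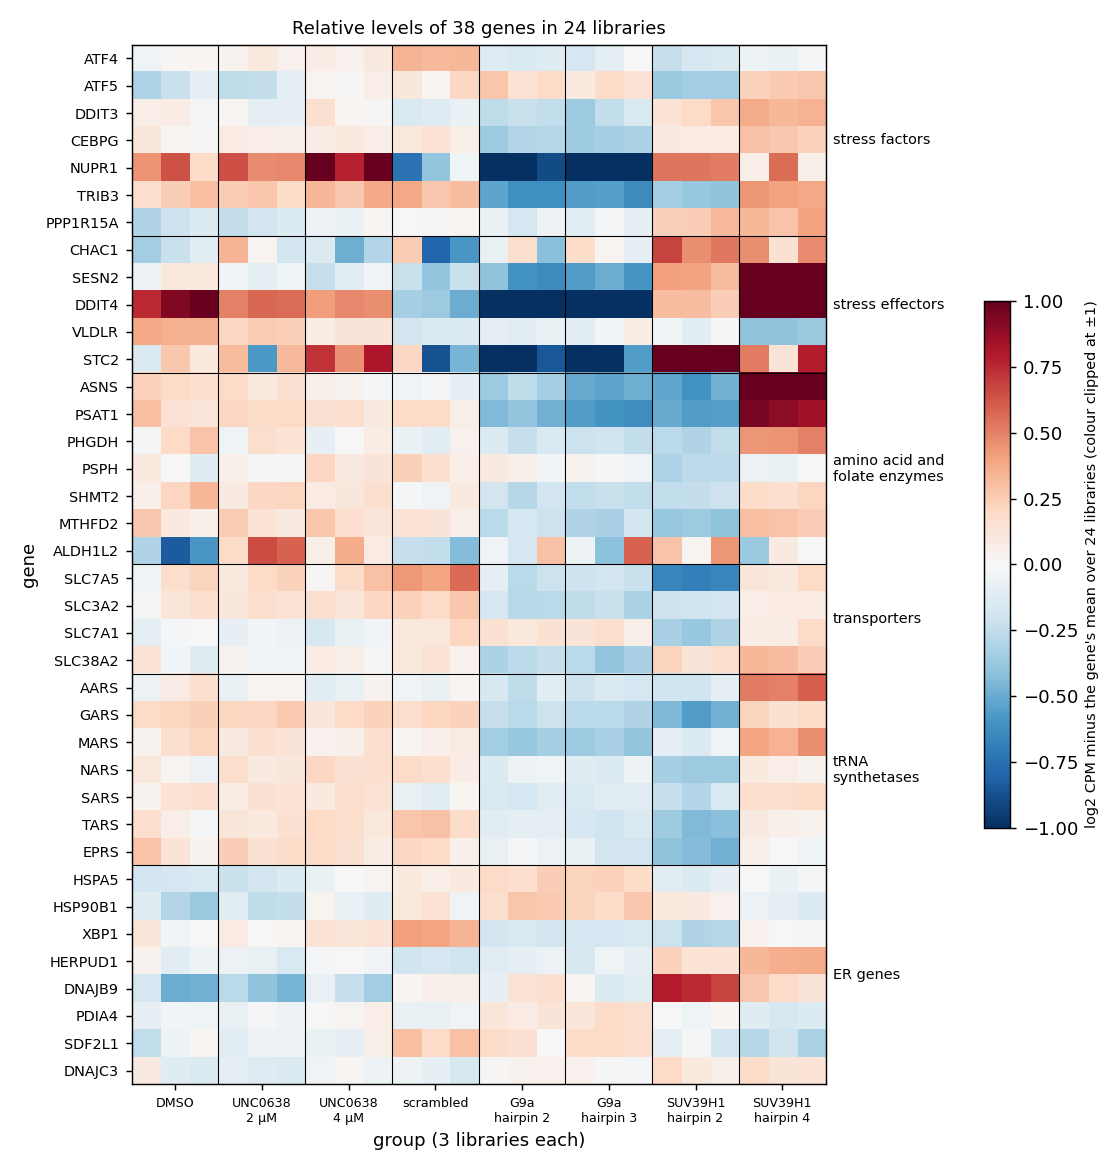
Levels of the 38 tested genes (rows, by role) in 24 libraries (columns, 3 per group), as log2 CPM minus the mean of the gene over all libraries, with colours clipped at ±1. Most amino acid genes are red in the SUV39H1 hairpin 4 libraries and blue in those of both G9a hairpins and SUV39H1 hairpin 2, and the ER genes do not follow that order.

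The 2 hairpins against SUV39H1 differed from each other in these genes, although SUV39H1 itself was low with both. Amino acid genes were lower with hairpin 2 than with hairpin 4, led by the asparagine and serine enzymes ASNS and PSAT1, while ER genes were split in direction. Of the 30 amino acid genes tested, 23 were lower with hairpin 2, 2 were higher and 5 fell short of the threshold, for a median log2 difference of -0.43. Of the 8 ER genes, 2 were lower and 4 higher, with a median of 0.05. Among all 20147 genes, 42.9% were called in this comparison, 20.9% higher and 22.0% lower, with a median of -0.01, against 81.6% of the 38 stress genes. A call here and below is a Benjamini-Hochberg adjusted p under 0.05 from the quasi-likelihood test of edgeR, over all genes. At a fold of at least 1.5 as well, 11 amino acid genes were lower and 1 higher, and no ER gene was left. SUV39H1 was slightly lower with hairpin 2 than with hairpin 4 (-0.18 ± 0.069, adjusted p = 0.0382), and so was EHMT2 (-0.24 ± 0.064, adjusted p = 0.00305). Their part in the difference was not tested.

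ASNS (chr7:97481430-97501854 on hg19, minus strand), which makes asparagine from aspartate, stood at 61.7, 58.3 and 63.7 CPM in the hairpin 2 libraries and at 182.3, 181.1 and 183.0 in those of hairpin 4. The scrambled libraries lay between, at 86.1, 87.2 and 83.8. No library of 1 group overlapped another of these 3 groups. The log2 difference between hairpins was -1.57 ± 0.039 (SE, adjusted p = 1.28e-20), or 0.337-fold.

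Serine is made from a glycolytic intermediate by PHGDH, PSAT1 and PSPH in turn, and all 3 were lower with hairpin 2. PSAT1 (chr9:80912059-80945009 on hg19, plus strand) was at 105.7, 101.5 and 102.2 CPM with hairpin 2 and at 289.8, 278.2 and 267.6 with hairpin 4, either side of the scrambled 171.6, 171.5 and 156.2. Its difference was -1.43 ± 0.047 (adjusted p = 1.99e-18), with no overlap. PHGDH differed by -0.74 ± 0.061 and PSPH by -0.24 ± 0.054. The one-carbon enzymes that take serine further in mitochondria, SHMT2 and MTHFD2, differed by -0.42 ± 0.052 and -0.66 ± 0.053. MTHFD2 read 153.7, 155.9 and 151.8 CPM with hairpin 2 and 246.5, 244.5 and 237.7 with hairpin 4, the latter above all 3 scrambled libraries (220.8, 218.6 and 207.6). ALDH1L2 did not pass (0.47 ± 0.33, adjusted p = 0.405).

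All 7 transfer RNA synthetases, which charge transfer RNAs with their amino acids, were lower with hairpin 2, by -0.40 (SARS, serine) to -0.71 (AARS, alanine). AARS was at 216.2, 216.1 and 231.2 CPM with hairpin 2 and at 355.3, 351.3 and 375.7 with hairpin 4 (-0.71 ± 0.052, adjusted p = 1.65e-11). The scrambled libraries, at 241.8, 236.6 and 251.9, sat closer to hairpin 2. GARS, the glycine enzyme, showed the opposite placing. It was at 172.9, 160.2 and 168.9 CPM with hairpin 2 and at 274.5, 262.3 and 266.9 with hairpin 4 (-0.68 ± 0.037), and the scrambled libraries (266.7, 273.4 and 275.7) overlapped those of hairpin 4.

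Among transporters, SLC7A5 and SLC3A2, the 2 chains of the LAT1 exchanger for large neutral amino acids, differed by -0.80 ± 0.065 and -0.28 ± 0.042. SLC7A1, a carrier of cationic amino acids, differed by -0.45 ± 0.045. SLC38A2, a sodium-coupled carrier of small neutral amino acids, did not pass (-0.12 ± 0.049, adjusted p = 0.0570), and passed without hairpin 4 replicate 3 (-0.16, adjusted p = 0.0223).

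ATF4, the factor that stands over this arm, differed little between the hairpins. The gene lies at chr22:39915700-39918691 on hg19, plus strand. Its message was at 225.1, 233.2 and 238.4 CPM with hairpin 2 and at 254.7, 251.0 and 261.2 with hairpin 4, a difference of -0.14 ± 0.037 (adjusted p = 0.00360). Both sets of libraries lay below the scrambled 332.6, 329.5 and 331.5. TRIB3, a pseudokinase that ATF4 and CHOP induce and that restrains them, was at 97.6, 95.3 and 93.5 CPM with hairpin 2 and at 167.8, 163.5 and 161.9 with hairpin 4 (-0.78 ± 0.042, adjusted p = 3.17e-14). Only hairpin 2 lay apart from the scrambled libraries for TRIB3 (162.1, 149.3 and 153.7). ATF5, a relative of ATF4, differed by -0.60 ± 0.056, and CEBPG, a partner of ATF4, by -0.18 ± 0.036.

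DDIT3, which encodes the death-linked factor CHOP, was at 24.2, 25.3 and 26.7 CPM with hairpin 2 and at 28.5, 27.7 and 27.9 with hairpin 4, both above the scrambled 19.8, 20.1 and 21.1. Its difference between hairpins was -0.14 ± 0.053 (adjusted p = 0.0294), and the call was lost without hairpin 2 replicate 1 or 2 or hairpin 4 replicate 1 (adjusted p 0.172, 0.0554 and 0.0567). DDIT3 overlaps MARS on hg19 and the kit does not mark strand, so reads in the overlap cannot be assigned. PPP1R15A, which directs a phosphatase to eIF2, and NUPR1 did not pass (-0.07 ± 0.045 and 0.30 ± 0.22).

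The effectors split. DDIT4 and SESN2, both inhibitors of the growth kinase mTORC1, were higher with each hairpin than in the scrambled libraries and highest with hairpin 4. DDIT4 was at 37.1, 37.2 and 35.7 CPM with hairpin 2, 61.8, 63.7 and 64.1 with hairpin 4, and 23.8, 23.3 and 21.3 with scrambled. SESN2 was at 30.2, 30.0 and 28.2, then 47.5, 48.9 and 51.7, and 19.4, 17.3 and 19.4 in the same order. None of these 3 groups overlapped for either gene, and hairpin 2 differed from hairpin 4 by -0.79 ± 0.053 for DDIT4 and -0.74 ± 0.060 for SESN2.

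Higher with hairpin 2 were STC2 (1.02 ± 0.23, adjusted p = 6.25e-04, on 89 counts over 3 libraries against 58) and VLDLR, a lipoprotein receptor that ATF4 induces. VLDLR was at 68.0, 64.1 and 68.2 CPM with hairpin 2 and at 52.4, 52.5 and 53.5 with hairpin 4 (0.34 ± 0.040). CHAC1 did not pass (0.19 ± 0.16).

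In the ER arm, HSPA5 (chr9:127997132-128003609 on hg19, minus strand; the chaperone BiP, which binds unfolded protein and restrains the ER stress sensors) was at 825.2, 807.9 and 839.7 CPM with hairpin 2 and at 885.2, 849.1 and 878.1 with hairpin 4, a difference that did not pass (-0.08 ± 0.034, adjusted p = 0.0626) and that passed without hairpin 4 replicate 2 (-0.11, adjusted p = 0.0257). XBP1 was at 190.7, 180.1 and 181.2 with hairpin 2 and at 227.6, 221.0 and 223.4 with hairpin 4 (-0.28 ± 0.037), and both lay below the scrambled 293.8, 291.4 and 280.4. HERPUD1, which serves the degradation of ER proteins, differed by -0.18 ± 0.043. XBP1 and HERPUD1 were the 2 ER genes called lower.

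Higher with hairpin 2 were DNAJB9, a BiP co-chaperone (0.54 ± 0.075), HSP90B1, the ER form of HSP90 (0.18 ± 0.055), PDIA4 (0.14 ± 0.033) and SDF2L1, a BiP cofactor (0.16 ± 0.062). DNAJC3, another co-chaperone and an inhibitor of PERK and PKR, did not pass (-0.03 ± 0.049). The HSP90B1 call was lost without hairpin 4 replicate 3 (adjusted p = 0.0645). That of SDF2L1 was lost without hairpin 2 replicate 1 or 2 or hairpin 4 replicate 1 or 3 (adjusted p 0.0747 to 0.186).

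Genes with a promoter match lay on both sides of the comparison. Of the 4 amino acid genes with TGATGNAA, ASNS, AARS and CEBPG were lower with hairpin 2 and CHAC1 did not pass. Of the 5 ER genes with an ER element, HSP90B1 and SDF2L1 were higher, XBP1 and HERPUD1 lower, and HSPA5 did not pass. PSAT1, TRIB3 and DDIT4 were lower with hairpin 2 as well, and the letters of the 3 motifs are not in their windows.

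**Figure D2:**
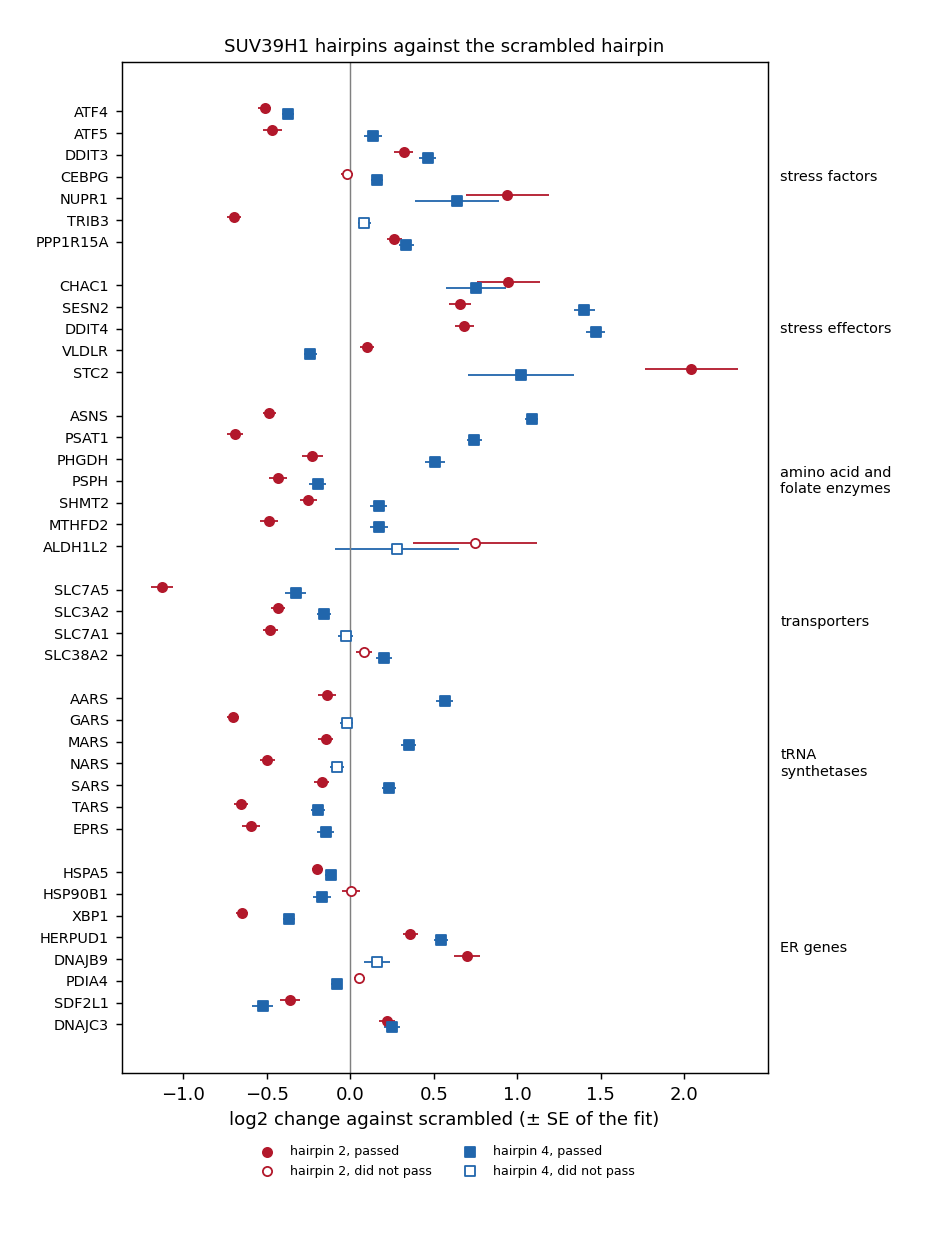
Log2 change of the 38 tested genes with SUV39H1 hairpin 2 (circles) and hairpin 4 (squares), each against the same 3 scrambled libraries. Bars give the approximate standard error, and filled symbols mark an adjusted p under 0.05. ASNS lies at -0.48 and 1.09, PSAT1 at -0.69 and 0.74, and the synthetases of hairpin 2 all lie left of those of hairpin 4, whereas HSPA5 lies at -0.20 and -0.12.

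Against the scrambled hairpin, most genes of synthesis, transport and charging were lower with SUV39H1 hairpin 2 and the 5 effectors were higher. Amino acid genes were called higher in 8 cases and lower in 19 of 30, with a median of -0.24, and ER genes higher in 3 and lower in 3 of 8. Together 86.8% of the 38 were called, where 67.1% of all genes were, 34.5% higher and 32.6% lower, with a median of 0.02. The largest falls were in SLC7A5 (-1.13 ± 0.066), GARS (-0.70 ± 0.037), TRIB3 (-0.70 ± 0.042) and PSAT1 (-0.69 ± 0.047). All 7 synthetases and 6 of 7 tested synthesis enzymes were lower, ASNS by -0.48 ± 0.040, and ALDH1L2 did not pass (0.75 ± 0.37). Of 4 transporters 3 were lower, and SLC38A2 did not pass (0.08 ± 0.050). All 5 effectors were higher, from 0.10 ± 0.040 for VLDLR to 2.04 ± 0.28 for STC2.

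The factors were mixed under hairpin 2. ATF4 was lower (-0.51 ± 0.037), as was ATF5 (-0.47 ± 0.057), while DDIT3 (0.32 ± 0.055), PPP1R15A (0.27 ± 0.045) and NUPR1 (0.94 ± 0.25) were higher. Among ER genes XBP1 (-0.65 ± 0.037), SDF2L1 (-0.36 ± 0.061) and HSPA5 (-0.20 ± 0.034) were lower, and DNAJB9 (0.70 ± 0.078), HERPUD1 (0.36 ± 0.044) and DNAJC3 (0.22 ± 0.049) higher. The VLDLR call was lost without scrambled replicate 1 or 2 or hairpin 2 replicate 1 or 3 (adjusted p 0.0558 to 0.135). AARS (-0.14 ± 0.052) was no longer called without scrambled replicate 3 or hairpin 2 replicate 1 or 2 (adjusted p 0.0565 to 0.0802).

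Most of the amino acid arm was higher with hairpin 4 than in the same scrambled libraries. There 18 of 30 amino acid genes were higher and 7 lower, with a median of 0.19, and 2 of 8 ER genes were higher and 5 lower, with a median of -0.10. Of the 38, 84.2% were called, and of all genes 60.9%, 31.8% higher and 29.2% lower, with a median of 0.03. DDIT4 (1.47 ± 0.055, 2.77-fold), SESN2 (1.40 ± 0.062, 2.64-fold) and ASNS (1.09 ± 0.039, 2.12-fold) rose most among genes above 10 CPM. PSAT1 (0.74 ± 0.046), AARS (0.57 ± 0.051), PHGDH (0.51 ± 0.061), DDIT3 (0.46 ± 0.053) and MARS (0.35 ± 0.045) followed.

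ATF4 was again lower than in the scrambled libraries (-0.37 ± 0.037, adjusted p = 2.34e-09). So were SLC7A5 (-0.33 ± 0.064), VLDLR (-0.24 ± 0.040), PSPH (-0.20 ± 0.053), TARS (-0.19 ± 0.042) and SLC3A2 (-0.16 ± 0.041). TRIB3 did not pass (0.08 ± 0.041, adjusted p = 0.0778) and passed without scrambled replicate 1 (0.12, adjusted p = 0.0271). NARS did not pass (-0.08 ± 0.042) except without scrambled replicate 3 (-0.12, adjusted p = 0.0275), and GARS and SLC7A1 did not pass. In the ER arm SDF2L1 (-0.52 ± 0.061) and XBP1 (-0.37 ± 0.037) were lowest, and HERPUD1 (0.54 ± 0.043) and DNAJC3 (0.25 ± 0.049) were higher.

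Several calls with hairpin 4 were lost when 1 library was left out. STC2 (1.02 ± 0.32) and HSP90B1 (-0.17 ± 0.055) were lost without scrambled replicate 2 (0.71, adjusted p = 0.0997, and -0.13, adjusted p = 0.0622). NUPR1 was lost without scrambled replicate 1 or 2 or hairpin 4 replicate 2 (adjusted p 0.0916 to 0.162), ATF5 without scrambled replicate 1 or 2 or hairpin 4 replicate 2 or 3 (0.0620 to 0.219), EPRS without scrambled replicate 1 or 2 or hairpin 4 replicate 3 (0.0742 to 0.0883), and PDIA4 without any one of the 6 libraries (0.0508 to 0.175).

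Myeloid markers moved with the SUV39H1 hairpins. Of the 10, 7 were called higher and 1 lower with hairpin 2 than with hairpin 4, where 20.9% and 22.0% of all genes were. The sum of the 10 markers was 1933.3 to 2005.2 CPM in the scrambled libraries, 5055.5 to 5072.3 with hairpin 2 and 3227.0 to 3266.9 with hairpin 4. The other marker lists were higher with hairpin 2 as well. Lymphoid sums were 171.1 to 183.6 CPM scrambled, 216.6 to 225.1 with hairpin 2 and 191.2 to 196.6 with hairpin 4. Erythroid sums stayed at or under 0.305 CPM in every library, from 0.0736 to 0.217 scrambled and 0.289 to 0.305 with hairpin 2. Epithelial and fibroblast sums stayed at or under 0.867 CPM. They were 0.0302 to 0.118 scrambled, 0.671 to 0.867 with hairpin 2 and 0.279 to 0.384 with hairpin 4. The part of these marker shifts in the differences between hairpins was not tested. In bulk RNA, fewer cells of a kind and less RNA per cell cannot be told apart.

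**Figure D3:**
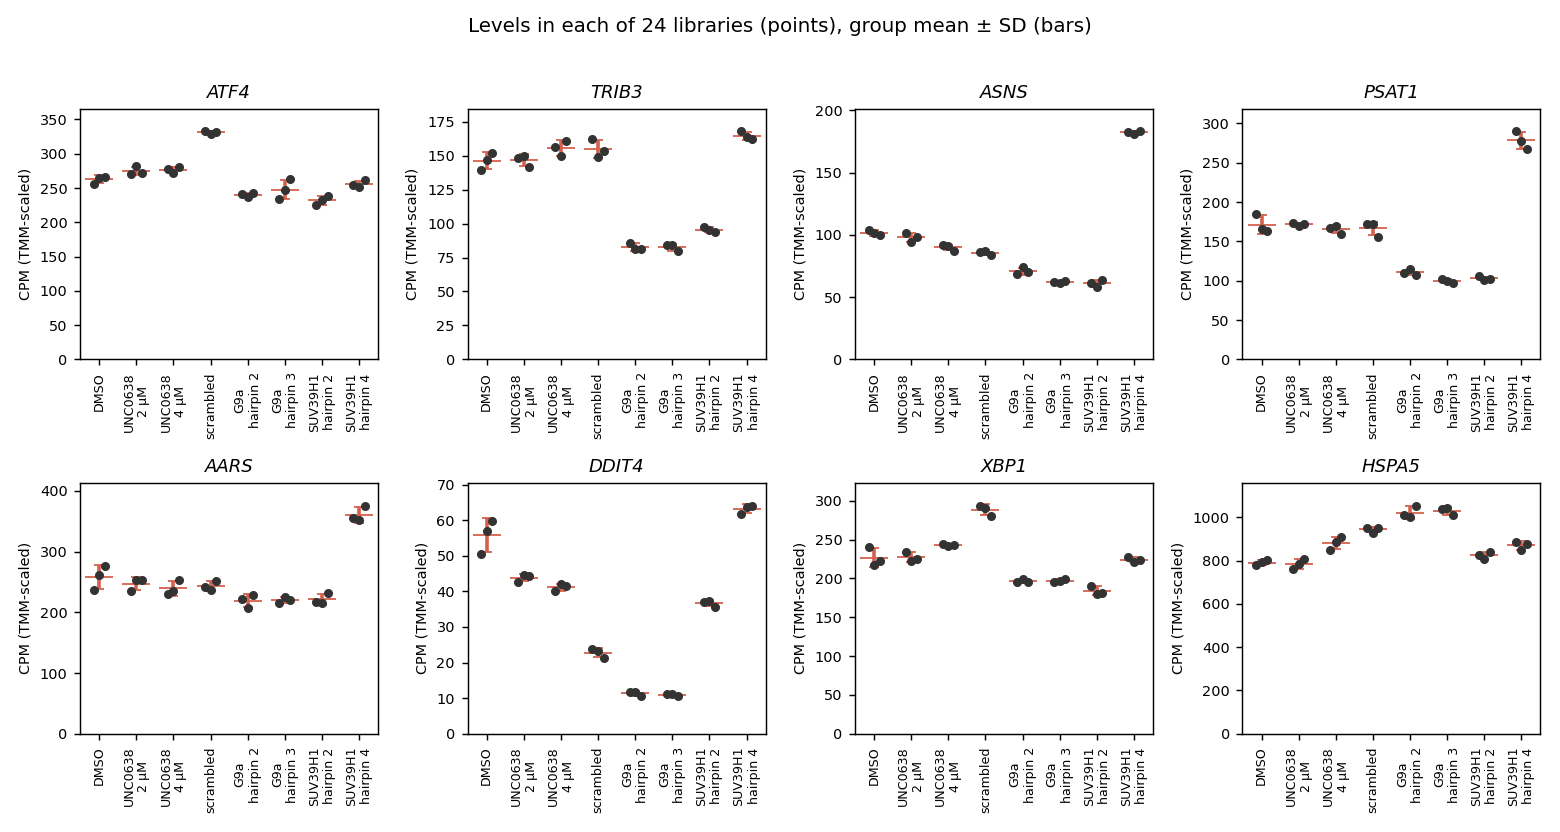
Levels (CPM, scaled by TMM) of 8 genes in each of the 24 libraries (points), with the mean ± SD of each group of 3 (bars), on axes that start at 0. ASNS, PSAT1 and AARS stand highest with SUV39H1 hairpin 4, TRIB3 is low with both G9a hairpins and SUV39H1 hairpin 2, and ATF4 and XBP1 are highest with the scrambled hairpin.

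The amino acid arm was lower with both G9a hairpins than in the scrambled libraries, and several ER chaperones were slightly higher. TRIB3 stood at 0.533-fold of its scrambled level with each hairpin, and DDIT4 at 0.499-fold and 0.481-fold. With hairpin 2, 19 of 30 amino acid genes were lower and 0 higher, with a median of -0.27, and of 8 ER genes 4 were higher and 2 lower, with a median of 0.11. With hairpin 3, 22 amino acid genes were lower and 1 higher (median -0.34), and 3 ER genes were higher and 1 lower (median 0.10). With hairpin 2, 65.8% of the 38 were called, against 44.4% of all genes, 22.1% higher and 22.3% lower. With hairpin 3 the shares were 71.1% of the 38 and 44.7% of all genes, 22.6% higher and 22.1% lower. The median over all genes was 0.01 in each. Both comparisons use the same 3 scrambled libraries, so they are not independent of each other.

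TRIB3 was at 85.8, 81.1 and 81.1 CPM with G9a hairpin 2 and at 83.9, 84.4 and 79.7 with hairpin 3, all below the scrambled 149.3 to 162.1. The change was -0.91 ± 0.042 with hairpin 2 and -0.91 ± 0.042 with hairpin 3 (adjusted p = 3.88e-15 and 3.57e-15). DDIT4 was at 11.8, 11.8 and 10.5 CPM, then 11.1, 11.1 and 10.7, against 21.3 to 23.8. It fell by 1.00 ± 0.061 and 1.06 ± 0.062 on the log2 scale. These 2 genes had the largest falls among members above 10 CPM.

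PSAT1 was at 110.1, 114.4 and 107.2 CPM with hairpin 2 and 102.0, 99.1 and 97.4 with hairpin 3, below every scrambled library (-0.59 ± 0.047 and -0.74 ± 0.047). ASNS was at 68.6, 74.1 and 69.9, then 62.5, 61.5 and 63.2 (-0.27 ± 0.039 and -0.46 ± 0.039). SESN2, at 17.2, 14.8 and 14.6, then 15.3, 16.1 and 15.1, changed by -0.27 ± 0.067 with each hairpin, with no overlap with the scrambled 17.3 to 19.4. MTHFD2, at 166.4, 177.0 and 172.1, then 162.2, 159.8 and 176.4, changed by -0.33 ± 0.053 and -0.38 ± 0.053.

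SLC7A5 (-0.65 ± 0.065 and -0.67 ± 0.065), SLC3A2 (-0.47 ± 0.042 and -0.49 ± 0.042) and SLC38A2 (-0.36 ± 0.050 and -0.42 ± 0.050) were lower with both hairpins, and SLC7A1 passed with neither. Of 7 synthetases, 6 were lower with each. GARS, at 200.2, 195.1 and 203.2 CPM, then 195.5, 195.8 and 191.2, changed most (-0.45 ± 0.037 and -0.49 ± 0.037). AARS, at 221.8, 207.5 and 228.9, then 214.9, 224.8 and 219.8, changed by -0.15 ± 0.052 with each, and SARS passed with neither.

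ATF4 was at 241.0, 236.6 and 242.4 CPM with hairpin 2 and at 234.1, 246.8 and 262.6 with hairpin 3, below the scrambled libraries (-0.46 ± 0.037 and -0.42 ± 0.037). CEBPG also fell (-0.42 ± 0.036 and -0.44 ± 0.036). ATF5 passed with neither hairpin. DDIT3 stood at 18.5, 18.9 and 18.6, then 17.1, 18.5 and 19.7, a change of -0.13 ± 0.056 that did not pass with hairpin 2 and of -0.14 ± 0.056 that passed with hairpin 3 (adjusted p = 0.0673 and 0.0439).

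XBP1 went with the amino acid genes, at 195.3, 198.7 and 195.2 CPM, then 195.7, 197.2 and 199.1, against 280.4 to 293.8 scrambled (-0.55 ± 0.037 with each). HSPA5 went the other way, at 1012.8, 999.7 and 1054.4, then 1037.7, 1042.5 and 1010.3, above the scrambled 953.1, 930.0 and 951.7 (0.11 ± 0.034 and 0.12 ± 0.034). PDIA4 (0.17 ± 0.033 and 0.22 ± 0.033) and HSP90B1 (0.17 ± 0.055 and 0.15 ± 0.055) were higher as well. VLDLR, at 65.2, 63.9 and 65.9, then 64.5, 67.8 and 72.8, passed with hairpin 3 alone (0.06 ± 0.040 and 0.13 ± 0.040), and the direct difference between the hairpins did not pass (-0.07 ± 0.040, adjusted p = 1).

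Several small G9a calls were lost when 1 library was left out. With hairpin 2 these were HSPA5 (without hairpin 2 replicate 3, adjusted p = 0.0630), HSP90B1 (hairpin 2 replicate 2 or 3 or scrambled replicate 3, 0.0520 to 0.120), AARS and NUPR1 (each without hairpin 2 replicate 2 or scrambled replicate 3, 0.0831 to 0.131), SDF2L1 and DNAJC3. With hairpin 3 they were DDIT3 (without any library but hairpin 3 replicate 3, 0.0573 to 0.252), HSP90B1 and PHGDH (both without hairpin 3 replicate 3 or scrambled replicate 3, HSP90B1 also without hairpin 3 replicate 1), AARS, NUPR1, PSPH and VLDLR. The sum of myeloid markers was 2412.8 to 2555.0 CPM in the 6 G9a libraries, above the scrambled 1933.3 to 2005.2. Of the 10 markers 4 were called higher with hairpin 2 and 5 with hairpin 3, where 22.1% and 22.6% of all genes were. The largest rises were in LYZ, lysozyme (0.93 ± 0.045 and 0.96 ± 0.045), CSF1R and ITGAM. PTPRC alone was lower with each (-0.20 ± 0.038 and -0.18 ± 0.038), where 22.3% and 22.1% of all genes were lower. SPI1, ITGB2, CD33 and MPO passed with neither. LYZ and ITGB2 reached the highest CPM of the 10 (2503.3 and 1377.4 over all 24 libraries), so they weigh most in the sum. CD79A, a B cell marker, was at 0.197-fold and 0.226-fold of its scrambled level. The part of these markers in the changes was not tested.

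Compared directly, the 2 G9a hairpins showed no called difference in any of the 38 genes. By the quasi-likelihood test of edgeR 0 members passed, where 0.00993% of all genes did, and 2 members had an unadjusted p under 0.05. DESeq2 called 1, ASNS, which was 0.18 ± 0.040 higher with hairpin 2 in the edgeR fit (adjusted p = 0.423). The ASNS libraries of the 2 hairpins did not overlap.

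**Figure D4:**
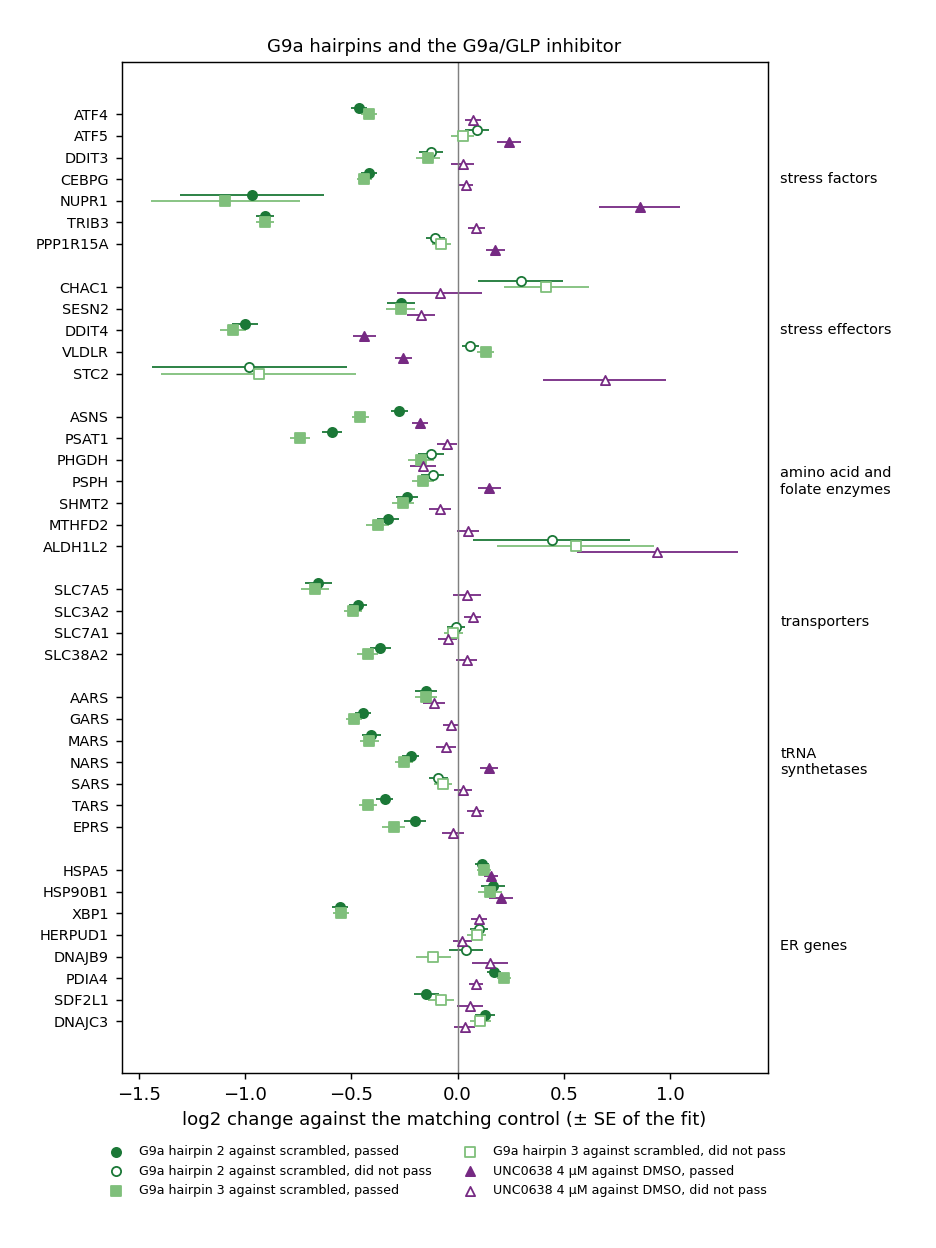
Log2 change of the 38 tested genes with G9a hairpin 2 (circles) and hairpin 3 (squares) against scrambled and with 4 µM UNC0638 (triangles) against DMSO. Bars give the approximate standard error, and filled symbols mark an adjusted p under 0.05. TRIB3 lies at -0.91 with each hairpin and at 0.09 with the inhibitor, and XBP1 at -0.55, -0.55 and 0.10.

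Set against the mean of the G9a hairpins, the mean of the SUV39H1 hairpins was higher for most amino acid genes. Of 30, 20 were higher and 5 lower (median 0.25), and of 8 ER genes 3 were higher and 4 lower (median -0.08), where 65.5% of all genes and 84.2% of the 38 were called, of all genes 32.6% higher and 32.9% lower. DDIT4 (2.11 ± 0.042, 4.31-fold) and SESN2 (1.30 ± 0.045, 2.46-fold) differed most among genes above 10 CPM. HSPA5 (-0.28 ± 0.024), HSP90B1 (-0.24 ± 0.039), PDIA4 (-0.21 ± 0.024) and SDF2L1 (-0.33 ± 0.043) were lower. ATF4 did not differ beyond its error (0.00 ± 0.026, adjusted p = 0.963). Since ASNS and PSAT1 lie on opposite sides of the scrambled level with the 2 SUV39H1 hairpins, their mean (0.67 ± 0.028 and 0.69 ± 0.033 here) stands for neither hairpin. Other genes share this limit. SUV39H1 hairpin 2 lay below every G9a hairpin library for SLC7A5, MTHFD2, GARS, NARS, TARS and EPRS. It lay above every one for TRIB3, CEBPG, SLC38A2, MARS, DDIT4 and SESN2. The 2 SUV39H1 hairpins were not tested singly against the G9a hairpins.

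With UNC0638 few of these genes differed from DMSO, and among those above 10 CPM none by more than the 0.738-fold of DDIT4 at 4 µM. At 2 µM only DDIT4 and VLDLR were called, both lower, or 5.26% of the 38, where 7.17% of all genes were called, 3.83% higher and 3.34% lower. At 4 µM, 5 of 30 amino acid genes were higher and 3 lower, and 2 of 8 ER genes were higher, together 26.3% of the 38, against 19.9% of all genes, 10.2% higher and 9.73% lower. The median change at 4 µM was 0.03 for amino acid genes, 0.09 for ER genes and -0.01 for all genes. Both doses share the DMSO libraries. Without DMSO replicate 1, which stood apart from the other DMSO libraries, 17 members were called at 4 µM, 10 higher and 7 lower, in place of 10. Replicate 1 at 4 µM also stood further from replicates 2 and 3 (chi-square per degree of freedom 8.68 and 19.5) than those did from each other (5.87). Deviations of same-numbered DMSO and 4 µM libraries correlated at 0.63 for replicate 1, -0.01 for replicate 2 and 0.63 for replicate 3. The run without DMSO replicate 1 kept 4 µM replicate 1. The cause of its higher count was not tested.

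DDIT4 was at 50.5, 57.0 and 59.8 CPM with DMSO, 42.7, 44.7 and 44.2 at 2 µM and 40.1, 42.0 and 41.4 at 4 µM (-0.35 ± 0.052 and -0.44 ± 0.052, adjusted p = 4.33e-05 and 5.47e-07). VLDLR was at 90.5, 88.7 and 88.8, then 80.0, 82.6 and 81.5, then 73.0, 75.8 and 75.7 (-0.13 ± 0.039 and -0.26 ± 0.039). Treated libraries lay below all DMSO libraries for both genes at both doses. The VLDLR call at 2 µM was lost without any one of the 6 libraries (adjusted p 0.0602 to 0.139).

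At 4 µM ASNS was at 91.7, 90.7 and 87.2 CPM against 103.8, 101.3 and 99.6 with DMSO, without overlap (-0.18 ± 0.039, adjusted p = 0.00148). HSPA5 was at 850.6, 887.5 and 908.1 against 778.9, 792.7 and 802.3 (0.16 ± 0.034), and HSP90B1 changed by 0.20 ± 0.055. The other genes called higher at 4 µM were NUPR1 (0.86 ± 0.19, 181 counts against 89), ATF5 (0.24 ± 0.056), PPP1R15A (0.18 ± 0.045), PSPH (0.15 ± 0.053) and NARS (0.15 ± 0.042). With the 6 compared libraries fitted alone, 4 members were called, and ASNS (adjusted p = 0.0522), HSPA5 (0.0643), HSP90B1 (0.0756), PPP1R15A (0.0736), PSPH (0.196) and NARS (0.109) did not pass. HSP90B1 and NARS were also lost without 4 µM replicate 1 or DMSO replicate 3, and PSPH without any of 4 libraries (4 µM replicate 1 or 3, DMSO replicate 2 or 3).

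ATF4, TRIB3 and PSAT1, all lower with the G9a hairpins, were not called at 4 µM, unlike DDIT4 and ASNS. ATF4 was at 256.2, 265.0 and 266.8 CPM with DMSO, 270.3, 281.7 and 272.1 at 2 µM and 277.2, 271.2 and 280.6 at 4 µM (0.07 ± 0.037 at 4 µM, adjusted p = 0.180). TRIB3 was at 139.6, 147.0 and 152.1, then 148.0, 150.0 and 141.6, then 156.0, 149.5 and 160.9 (0.09 ± 0.041 at 4 µM, adjusted p = 0.140). PSAT1 was at 184.7, 165.5 and 162.7 with DMSO and at 166.7, 169.5 and 159.7 at 4 µM (-0.05 ± 0.046). The treated and DMSO libraries overlapped for TRIB3 and PSAT1.

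XBP1 was at 240.2, 217.0 and 222.2 CPM with DMSO and 243.8, 241.2 and 243.2 at 4 µM, which did not pass (0.10 ± 0.037, adjusted p = 0.0572) and passed without DMSO replicate 1 (0.15, adjusted p = 0.00337). DDIT3, at 23.0, 23.2 and 21.7 against 24.6, 22.3 and 22.2, overlapped and did not pass (0.02 ± 0.054). SESN2 overlapped too, at 21.9, 24.4 and 24.4 against 19.3, 21.0 and 22.3 (-0.17 ± 0.064, adjusted p = 0.0572). It passed without DMSO replicate 1 (-0.22, adjusted p = 0.0151) or 4 µM replicate 3 (-0.22, adjusted p = 0.0253).

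Between the doses, 3 of the 38, or 7.89%, were called, all higher at 4 µM than at 2 µM, where 1.84% of all genes were called, 1.39% higher and 0.452% lower. They were HSPA5 (0.17 ± 0.034), ATF5 (0.23 ± 0.055) and NUPR1 (0.73 ± 0.19). With the 2 doses fitted alone 0 passed. Leaving out 1 library ended the HSPA5 call without 4 µM replicate 3 (adjusted p = 0.0536), the ATF5 call without any library but 2 µM replicate 3 (0.0650 to 0.157), and the NUPR1 call without any but 4 µM replicate 2 (0.0723 to 0.290).

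The 2 controls differed in these genes. In the scrambled libraries 5 of 8 ER genes were higher than with DMSO and 1 lower (median 0.29), and 9 of 30 amino acid genes were higher and 9 lower (median -0.02). Together 63.2% of the 38 were called, where 31.4% of all genes were, 14.9% higher and 16.5% lower, with a median of -0.01. DDIT4 fell most, from 50.5 to 59.8 CPM with DMSO to 21.3 to 23.8 with scrambled (-1.29 ± 0.055, adjusted p = 1.34e-15). VLDLR fell by 0.52 on the log2 scale (± 0.040), from 88.7 to 90.5 CPM to 61.0 to 63.1. No library overlapped for either gene.

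ATF4 (0.33 ± 0.037), XBP1 (0.35 ± 0.037), HSP90B1 (0.33 ± 0.055), SDF2L1 (0.35 ± 0.061), DNAJB9 (0.41 ± 0.084) and HSPA5 (0.26 ± 0.034) were higher in scrambled cells, and HERPUD1 lower (-0.15 ± 0.044). SLC7A5 (0.34 ± 0.065), SLC7A1 (0.18 ± 0.045) and TARS (0.18 ± 0.042) were higher, and ASNS (-0.24 ± 0.039) and SESN2 (-0.33 ± 0.065) lower. ATF4 and XBP1 thus had their highest group mean of all 8 in the scrambled group. So did SLC7A5, SLC3A2, SLC7A1, TARS, PSPH and SDF2L1. Every hairpin comparison for these genes starts from that level. With SUV39H1 hairpin 4, SLC7A5 (377.1 to 405.2 CPM) lay within the DMSO range (342 to 412.6). DDIT4 with that hairpin (61.8 to 64.1 CPM) lay closer to DMSO (50.5 to 59.8) than to scrambled (21.3 to 23.8). The G9a hairpin libraries had 234.1 to 262.6 CPM of ATF4 against 256.2 to 266.8 with DMSO. Transduction, selection and handling cannot be told apart in the comparison of scrambled with DMSO. The HERPUD1 call was lost without DMSO replicate 1 (adjusted p = 0.0888).

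The response to 4 µM UNC0638 was then compared with the mean response to the G9a hairpins, each taken against its own control. The response to the inhibitor was the higher one in 20 of 30 amino acid genes and the lower one in 1, VLDLR. Of the ER genes XBP1 was higher and PDIA4 lower. Together 60.5% of the 38 were called, where 44.8% of all genes were, 22.5% higher and 22.3% lower. The median difference was 0.37 for amino acid genes and 0.04 for ER genes. The smallest p-values belonged to TRIB3 (1.00 ± 0.055), XBP1 (0.65 ± 0.049), PSAT1 (0.62 ± 0.061) and ATF4 (0.51 ± 0.049). ASNS, lower in both, differed by 0.19 ± 0.051, and AARS (0.04 ± 0.068) and HSPA5 (0.04 ± 0.045) did not pass. The PDIA4 call (-0.11 ± 0.044) was lost under DESeq2 and without any of 9 of 15 libraries.

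Further genes of the same pathways, from lists drawn up by function, were read from the same fit. The shares of all genes given above for each comparison, 20.9% higher and 22.0% lower between the SUV39H1 hairpins, are the background for these counts. Between the SUV39H1 hairpins, 10 of 13 other cytosolic synthetases were lower with hairpin 2 and 0 higher, led by CARS (-0.62 ± 0.035), WARS (-0.68 ± 0.040), LARS (-0.57 ± 0.035) and IARS (-0.64 ± 0.040). Of 17 mitochondrial synthetases, 11 were lower and 1 higher. Of 20 other folate and amino acid enzymes, 11 were lower, among them MTHFD1L, a mitochondrial one-carbon enzyme (-0.86 ± 0.045), and 2 higher, among them GLUL, glutamine synthetase (0.39 ± 0.033).

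Of 23 other targets of the stress response, 12 were lower with hairpin 2 (52.2%) and 4 higher (17.4%, under the share of all genes). SLC38A1, a glutamine carrier, differed by -1.44 ± 0.047 and GPT2, an alanine transaminase, by -1.05 ± 0.040. SLC7A11, the cystine carrier, was the other way (0.93 ± 0.054). Of 25 other ER folding and degradation genes, 9 were higher (36%), among them CALR, the chaperone calreticulin (0.53 ± 0.056), and 5 lower (20%, near the share of all genes). Of 18 stress kinases, eIF2 and eIF2B subunits and related genes, 2 were higher and 7 lower, and EIF2AK2, the kinase PKR, which interferon induces, was the one with the smallest p (0.82 ± 0.044).

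With the G9a hairpins the cytosolic synthetases were again mostly lower, 10 of 13 with each, and 1 was higher with hairpin 3, where 22.3% and 22.1% of all genes were lower with hairpins 2 and 3. Other stress response targets were lower in 13 of 23 with hairpin 2 and 12 with hairpin 3, and 3 were higher with each. GPT2 changed by -0.74 ± 0.040 and -0.82 ± 0.040 and SLC7A11 by -0.79 ± 0.065 and -1.03 ± 0.066. TXNIP, a glucose-responsive arrestin, rose by 1.04 ± 0.042 with each hairpin. A list of chaperones and co-chaperones of the cytosol and mitochondria also held mitochondrial protease genes. Of its genes, 12 of 16 were lower with each hairpin, among them HSPA9, the mitochondrial HSP70 (-0.48 ± 0.032 and -0.52 ± 0.032). With hairpin 2, 2 were higher, HSPA1A (0.21 ± 0.079) and HSPA1B (0.18 ± 0.071), near-identical copies whose reads may be split. These 2 were named after their values were seen. Of 25 other ER genes 7 were higher and 7 lower with each (28% each way), not far from the 22.1% higher and 22.3% lower of all genes with hairpin 2.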

How the data were processed

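The deposited table holds raw read counts per gene name for 24 libraries, made by the authors. The submitters' processing notes name STAR, featureCounts and hg19. Versions, strand setting and filters are not stated there. Per the labels' protocols, libraries came from a TruSeq kit that does not mark strand, so reads where genes overlap (DDIT3 with MARS, ATF5 with NUP62, HSP90B1 with C12orf73, DNAJB9 with PNPLA8) cannot be assigned. No column of the table was left unmapped, and the separate table of transposon counts was not used here.

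The filterByExpr function of edgeR 4.0.16 left 20147 genes (count minimum 10, total minimum 15), which were scaled by TMM, and tested with the quasi-likelihood test in R 4.3.3, two-sided, with all 24 libraries and 1 mean per group (common biological coefficient of variation 4.63%). P-values were Benjamini-Hochberg adjusted over all genes, and a call is an adjusted p under 0.05. Levels are TMM-scaled CPM computed from the deposited counts. Values ± are approximate standard errors of log2 changes, each the size of the change divided by the square root of the F statistic of its test. At low counts they can be smaller than the p-value implies.

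The members and all gene lists were chosen with earlier results of these data known. By rule, library values are printed for ATF4, DDIT3, HSPA5 and XBP1, for the 8 members with the smallest p between the SUV39H1 hairpins, and for the 4 with the smallest p in 5 other comparisons, and at most 4 genes of each further list are named. Promoter windows came from RefSeq (GRCh38.p14), 27 matched by symbol and 5 by synonym (AARS, MARS, NARS, TARS, EPRS). A planned search of protein ends for ER retention signals was not used here. Alternatives were RLE scaling, no filter, DESeq2 1.42.0, the compared libraries alone, a fold of at least 1.5, each library left out, and a replicate block. The test was run on simulated counts in which few genes changed, equally up and down and in 1 group, with the spread of the fit. In these data many genes were called, so that run does not cover scaling or error rates here. Same-numbered libraries were checked for deviating together (-0.52 to 0.73 over 84 pairs). Every correlation was over 0.1 for DMSO with 2 µM (0.72, 0.33 and 0.42) and for scrambled with SUV39H1 hairpin 4 (0.22, 0.16 and 0.54), and not in the other comparisons made. This pairing comes from the data, since the labels give no shared source.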

Additional observations from a re-analysis of the deposited data

Results flagged for a closer look

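The response to 4 µM UNC0638 and the mean response to the G9a hairpins, each against its own control, differed by a direct test in 23 of the 38 genes (edgeR quasi-likelihood test, Benjamini-Hochberg adjusted over all genes). The 4 genes with the smallest p follow, all higher with the inhibitor. TRIB3 differed by 1.00 ± 0.055 on the log2 scale (adjusted p = 9.91e-14), a change of 0.09 with the inhibitor beside -0.91 with each hairpin. XBP1 differed by 0.65 ± 0.049 (adjusted p = 4.01e-11), and its scrambled libraries (280.4 to 293.8 CPM) stood above DMSO (217 to 240.2). PSAT1 differed by 0.62 ± 0.061 (adjusted p = 6.54e-09). ATF4 differed by 0.51 ± 0.049 (adjusted p = 3.67e-09), and its scrambled libraries stood 0.33 above DMSO.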

How the results depend on the processing

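No member called in the main run or in an alternative run changed direction between those runs. Sign changes of members called in neither run were not counted. Counts of members called moved by over 1.5 times as follows. For 2 µM UNC0638 against DMSO, 2 became 1 without the filter, 1 with the compared libraries alone, 0 at a fold of at least 1.5, and 1 to 2 with 1 library left out. For 4 µM, 10 became 4 alone, 1 at 1.5-fold and 7 to 17 with 1 library left out, and between the doses 3 became 0 alone, 1 at 1.5-fold and 0 to 2. DESeq2 called 1 between the G9a hairpins in place of 0. At 1.5-fold the counts were 5 for each G9a hairpin, 13 for SUV39H1 hairpin 2, 7 for hairpin 4, 12 between them, 7 for SUV39H1 against G9a hairpins, 2 for scrambled against DMSO and 7 for the inhibitor against the G9a response. With 1 library left out the others ranged over 20 to 26 and 22 to 27 (G9a hairpins 2 and 3), 31 to 32 and 26 to 32 (SUV39H1 hairpins 2 and 4), 29 to 32 (between those), 19 to 25 (scrambled against DMSO) and 21 to 24 (inhibitor against G9a response). Over single genes and comparisons, RLE scaling kept 443 of 456 calls or non-calls, no filter 436 of 456, DESeq2 437 of 453 and the compared libraries alone 414 of 440. Over all genes, fitting the compared libraries alone called 717 in place of 1444 at 2 µM, 1993 in place of 4012 at 4 µM and 236 in place of 371 between doses. Between the G9a hairpins no filter called 11 in place of 2. The replicate block left 446 of 456 results the same and gave 10 more calls, with 13 members called at 4 µM and 33 between the SUV39H1 hairpins. It changed no member's call at 2 µM or with SUV39H1 hairpin 4, the 2 comparisons whose same-numbered libraries all deviated together. In the other comparisons the same-numbered correlations were mixed, such as 0.63, -0.01 and 0.63 for DMSO with 4 µM. Whether those libraries share more than a number is not known. Over all groups 14 of 24 libraries correlated best with their own number, a hint from the data and not the design. The causes of these shifts were not tested. Shares of members called are set beside those of all genes without matching for level, and depth limits PYCR1, ALDH1L2, STC2, NUPR1 and CHAC1.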
